A study of Rattus norvegicus with 110 samples.

Results

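The liver transcriptomes of rats given a high dose of carbon tetrachloride (CCl4) were compared with those of rats given a low dose, in 28 against 28 males. These 56 livers were chosen by group label alone, as all livers of the 4 high-dose and the 4 low-dose groups, out of 83 liver samples and 110 samples in the series. Every animal was a Sprague Dawley male of the F2 generation, 9 to 11 weeks old at the start, and received 0.5 mL per kg of a CCl4 solution in olive oil by oral gavage 3 times a week over 39 days. The solution held 8% CCl4 by volume in the low-dose groups and 50% in the high-dose groups, so both arms received CCl4 and neither was untreated. At each dose there were 4 cohorts of 7 males (of 10 treated), which differed in whether their ancestors had been given 50% CCl4. In cohort A neither the F0 nor the F1 father had been treated, in cohort B only F1 males had received CCl4, in cohort C only F0 males, and in cohort D both. All livers were taken 24 hours after the last dose, on 1 of 4 necropsy dates that each held equal numbers of both doses (8 and 8 on 3 dates and 4 and 4 on the third). The 27 vehicle livers, given olive oil, were not compared with either dose. They entered the normalization and 1 alternative fit, and their values are given beside some genes as a level only.

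CCl4 is turned into a reactive radical by cytochrome P450 enzymes of hepatocytes, above all in the cells around the central vein, where those enzymes are densest. Repeated dosing kills these cells and sets off repair, in which stellate cells become matrix-producing myofibroblasts and macrophages and lymphocytes enter the tissue. Surviving hepatocytes change their detoxifying enzymes, their antioxidant defence and their metabolic and secretory genes.

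Bulk RNA sequencing of poly(A) RNA gave between 31638559 and 51343589 counts per liver over both doses, with medians of 39018200 at low and 38832732 at high dose. Values below are normalized counts, that is counts divided by a factor for library size and composition (TMM). These factors were higher at high dose (0.947 to 1.92, median 1.25) than at low dose (0.862 to 1.14, median 0.956). One high-dose liver of cohort D, replicate 5, had the largest factor (1.92), and its 10 largest genes took 9.94% of its counts, against a median of 19.1% over the high-dose livers. It stood apart from its group, and results include it unless stated otherwise. Of the lists of hepatic genes used below, 176 of 446 genes could be tied to an identifier, because gene symbols were at hand for 1488 of the 18884 tested genes. Those 1488 were named in the study for an effect of F0 ancestry in the same livers, so they are not a sample of all genes. Col1a1, Acta2, Tgfb1, Pparg, Cyp2e1, Alb and Mki67 were among the genes without an identifier and were not analysed here. As a check of tissue, the 6 measured hepatocyte genes of the liver list were present in every group, with a summed normalized count of 36691 to 147191 at low dose and of 10202 to 87487 at high dose.

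The dose changed a large share of the transcriptome, mostly by an absolute log2 fold change under 1. More genes were higher at high dose than lower. In an edgeR quasi-likelihood fit with cohort as a block, 12365 of the 18884 genes (65.5%) passed a Benjamini-Hochberg adjusted p of 0.1, with 7194 (38.1%) higher and 5171 (27.4%) lower at high dose. A call also needed an absolute log2 fold change over 1, and 3136 genes (16.6%) met both, 2254 of them (11.9%) higher and 882 (4.67%) lower. Without replicate 5 of the high-dose group of cohort D, 2070 genes were called higher and 850 lower. The median log2 fold change over all tested genes was 0.07, and 575 called genes rose and 170 fell by more than 4-fold. Among the 1488 genes with a symbol 105 were called (7.06%), 50 higher and 55 lower, or 3.36% and 3.7%, and 71.2% passed the adjusted p alone, 30.6% higher and 40.7% lower. These are the shares against which the gene lists below are to be read. Among the 12338 genes with a mean normalized count over 50, from which the examples were drawn, 9.07% were called, 6.06% higher and 3.01% lower. The size of this split depends on the scaling. With library size alone in place of TMM, the median over all genes was 0.46, and 4099 genes were called higher and 462 lower, so 89.9% of the calls were upward in place of 71.9%.

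**Figure D1:**
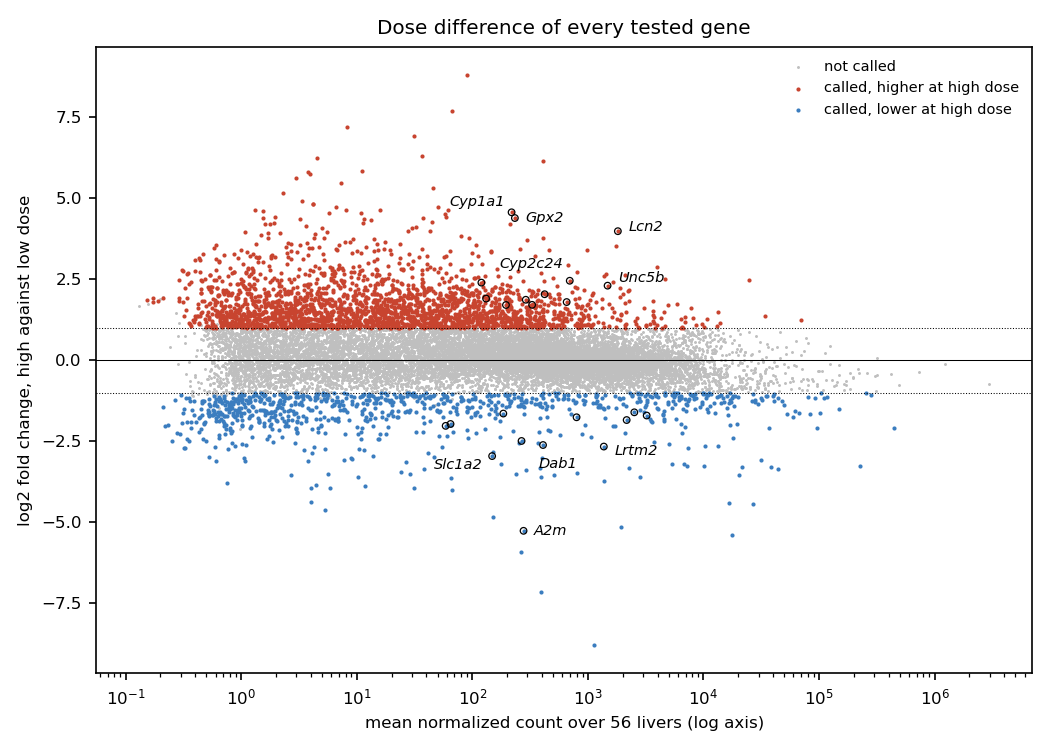
Log2 fold change of every tested gene (high against low dose, vertical axis) against its mean normalized count over 56 livers (log axis). Red and blue points are the 2254 and 882 called genes, dotted lines mark log2 fold changes of 1 and -1, and open circles mark the 24 named genes described next, of which 9 are labelled. With library size alone the whole cloud lies higher, at a median of 0.46.

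The 4 largest rises among the named genes were of Cyp1a1, Gpx2, Lcn2 and Cyp2c24, of which all but Lcn2 encode enzymes. Cyp1a1, the P450 that the aryl hydrocarbon receptor induces, had a lowest, median and highest normalized count of 0, 12.1 and 82.2 at low dose and of 5.44, 231 and 2492 at high dose. Its log2 fold change was 4.57 ± 0.43 (SE, adjusted p = 4.4e-13, edgeR). The vehicle median was 10.4, although 1 vehicle liver of cohort B reached 3076, and the same liver had the highest vehicle value of Cyp1a2. Gpx2, a selenium-dependent glutathione peroxidase, ran from 2.24 through 9.18 to 286 at low dose and from 10.5 through 326 to 1488 at high dose (4.39 ± 0.42, adjusted p = 4.41e-13). Cyp2c24, another P450, went from a median of 147 (55.7 to 866) to 1152 (320 to 1916), with a log2 fold change of 2.46 ± 0.23 (adjusted p = 3.25e-13). For Cyp1a1, Gpx2 and Cyp2c24 the ranges of the doses overlapped, while the high-dose mean exceeded the low-dose mean in all 21 litters that had males at both doses.

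Lcn2, which encodes the siderophore-binding protein lipocalin 2, rose from a median of 139 (1.84 to 1101) to 1958 (17.4 to 17139), a log2 fold change of 3.99 ± 0.44 (adjusted p = 3.23e-11). The high-dose livers spanned a wide range that overlapped the low-dose one, and the difference was positive in 21 of 21 litters. Ggt1, the gamma-glutamyltransferase that breaks down extracellular glutathione and marks altered foci in rat liver, rose from 31.8 (13 to 157) to 143 (26.3 to 822), by 2.40 ± 0.29 on the log2 scale (adjusted p = 6.11e-10). Both genes also stand on the cholangiocyte and ductular list, which is described below.

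The promoter windows of genes at the 2 ends of the response are shown so that the sequence stands beside the values. They cover the 250 bases before the annotated start (RefSeq, build GRCr8, which is not the annotation behind the counts), and a window was listed for 1177 of the genes with a symbol, Cyp1a1 not among them. Capitals mark a match, on either strand, to TGACNNNGC in Gpx2 (the antioxidant response element core), to a kappaB motif in Lcn2 and to GCGTG in Slc1a2 (the core bound by the aryl hydrocarbon receptor). Gpx2 lies at chr6:101230034-101230283 on the minus strand, Lcn2 at chr3:36081781-36082030 on the minus strand, and Slc1a2 at chr3:109459859-109460108 on the plus strand.
Gpx2: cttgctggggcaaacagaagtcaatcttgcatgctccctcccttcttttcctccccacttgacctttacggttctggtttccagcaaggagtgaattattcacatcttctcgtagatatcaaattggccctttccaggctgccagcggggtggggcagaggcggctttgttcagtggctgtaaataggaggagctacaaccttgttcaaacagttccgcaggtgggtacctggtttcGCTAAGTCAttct
Lcn2: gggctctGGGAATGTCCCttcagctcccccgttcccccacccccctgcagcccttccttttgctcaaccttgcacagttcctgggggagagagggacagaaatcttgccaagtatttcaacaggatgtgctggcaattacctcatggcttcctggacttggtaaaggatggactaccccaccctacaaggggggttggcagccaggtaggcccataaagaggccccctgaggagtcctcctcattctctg
Slc1a2: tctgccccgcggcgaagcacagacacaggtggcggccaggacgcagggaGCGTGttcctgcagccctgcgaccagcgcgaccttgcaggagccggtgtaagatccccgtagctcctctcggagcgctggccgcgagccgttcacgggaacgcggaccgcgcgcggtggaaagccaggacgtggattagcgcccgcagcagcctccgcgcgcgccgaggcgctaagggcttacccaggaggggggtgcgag

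The Gpx2 match began 13 bases before the start, the Lcn2 match 243 bases and the Slc1a2 match 201 bases before it. Of 27457 rat promoter windows of this length, 10.2% held TGACNNNGC, 0.532% held the kappaB motif and 27.2% held GCGTG. Among the 34 windows of genes called higher the counts were 3, 1 and 12, and among the 41 windows of genes called lower they were 2, 0 and 19. The windows of the 1177 genes with a symbol, called or not, held GCGTG in 47.8%, TGACNNNGC in 13.3% and the kappaB motif in 0.765%. These matches are letters in a window and say nothing about binding.

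**Figure D2:**
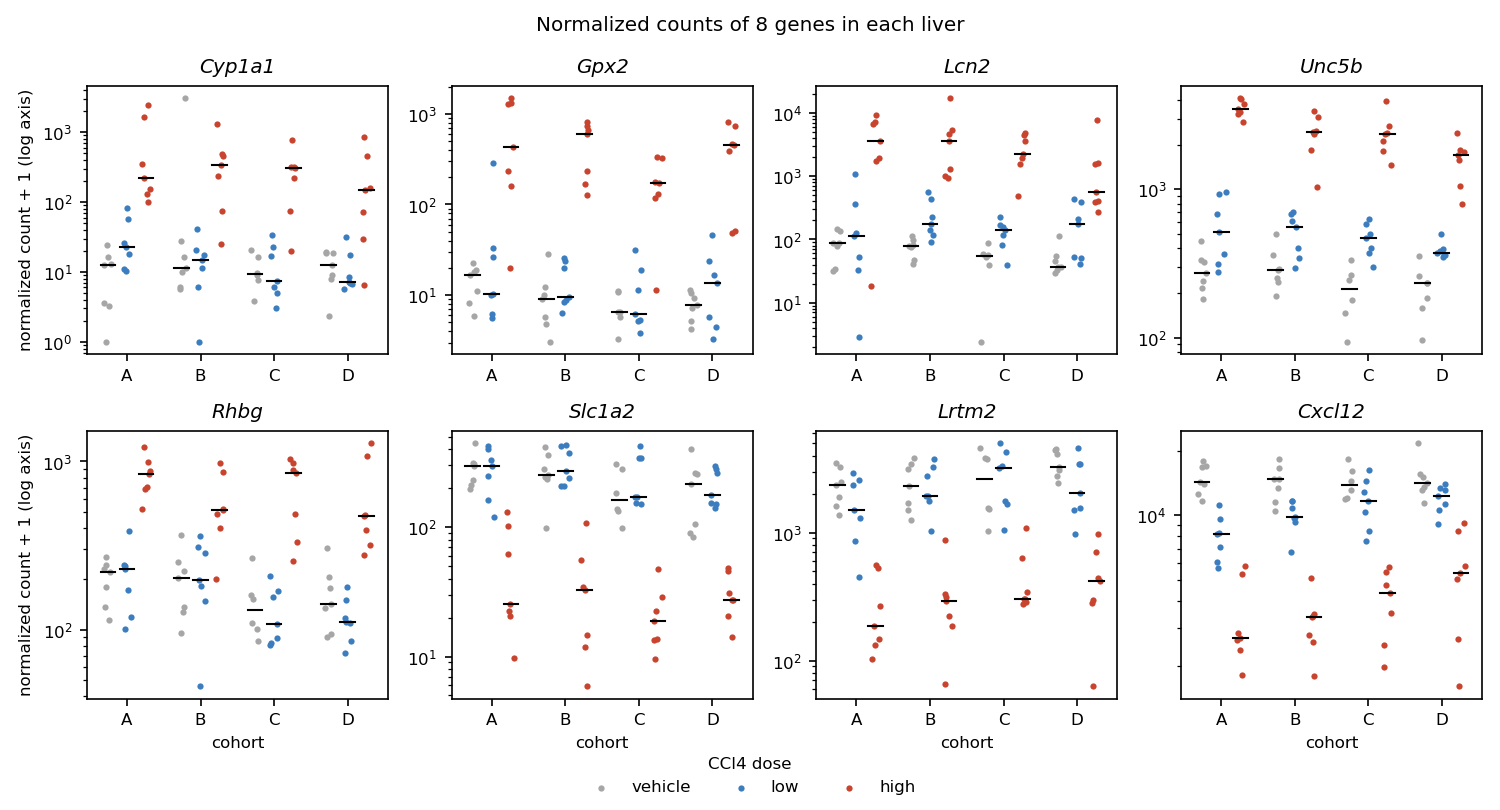
Normalized count plus 1 (log axis) of 8 genes in each liver by cohort, with the vehicle livers in grey, low dose in blue, high dose in red and a black line at each group median. Cyp1a1, Gpx2, Lcn2, Unc5b and Rhbg have higher and Slc1a2, Lrtm2 and Cxcl12 lower group medians at high dose in each cohort, and for Slc1a2 the low-dose median (256) is close to the vehicle median (244).

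The other genes among the 12 largest named rises included receptors, transporters and biosynthetic enzymes. Unc5b, a netrin receptor, gave the firmest of these differences, from 402 (277 to 960) to 2404 (800 to 4113), with a log2 fold change of 2.31 ± 0.13 (adjusted p = 1.49e-21). A single high-dose liver, at 800, lay within the low-dose range. Psat1, an enzyme of serine synthesis, rose from 121 (48.1 to 251) to 453 (139 to 1048), by 1.87 ± 0.17 (adjusted p = 7.77e-14). Pla1a, a phospholipase specific for phosphatidylserine, rose from 267 (134 to 779) to 988 (288 to 1710), by 1.80 ± 0.15. Tril, an accessory protein of Toll-like receptor 4, rose from 56.5 (23.1 to 110) to 168 (57.1 to 539), by 1.91 ± 0.21. Disp1, which releases Hedgehog ligands from cells, and Gfra3, a receptor subunit for the growth factor artemin, rose by 1.72 ± 0.14 and 1.71 ± 0.16, and their medians went from 142 to 460 and from 84.5 to 294. Across these 12 genes the difference was positive in 20 or 21 of 21 litters, and 9 of the 12 were higher in all 21. Litter counts of named genes come from the same livers that chose the genes, so they are a description. None of the 12 separated the 28 high-dose from the 28 low-dose livers completely.

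Leaving aside A2m, described below, the largest named falls were of Slc1a2, Lrtm2, Dab1 and Edar. Slc1a2, the glutamate transporter of hepatocytes around the central vein, had a median of 256 (120 to 427) at low dose and of 25.3 (4.88 to 130) at high dose. Its log2 fold change was -2.95 ± 0.24 (adjusted p = 2.03e-15), and the vehicle median was 244. Lrtm2 fell from 1999 (449 to 5032) to 299 (61.8 to 1076), with a log2 fold change of -2.66 ± 0.24 and a vehicle median of 2754. Dab1, an adaptor of reelin signalling, fell from 575 (272 to 1260) to 81.6 (22.8 to 307), with a log2 fold change of -2.61 ± 0.24 and a vehicle median of 843. Edar, the ectodysplasin receptor, fell from 465 (107 to 785) to 61.5 (8.62 to 388), with a log2 fold change of -2.49 ± 0.26. For these 4 genes the high-dose median lay under the lowest low-dose liver, although the ranges overlapped.

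The remaining 8 of the 12 named falls were of genes with differing roles. Avpr1a, the hepatic vasopressin receptor, went from 3481 (2163 to 7286) to 1011 (239 to 3284), a log2 fold change of -1.60 ± 0.16 (adjusted p = 1.57e-12). Gucy1b2, a subunit of soluble guanylate cyclase, went from 1221 (570 to 1673) to 331 (64.7 to 984), a change of -1.76 ± 0.17 on the log2 scale. Cabp2, a calcium-binding protein, went from 3255 (1534 to 7051) to 860 (129 to 2674), a log2 change of -1.84 ± 0.17. Ntf3, the neurotrophin-3 gene, fell from a median of 102 to 23.8 and Togaram2 from 84.2 to 19.4, while Fer1l5 fell from 272 to 77.0. Hsd17b2, which inactivates estradiol and testosterone, fell from 2918 (1164 to 25489) to 1080 (202 to 3721), with a log2 fold change of -1.70 ± 0.26 (adjusted p = 1.74e-07). A2m, a protease inhibitor and acute phase protein, had a median of 563 at low dose and was at 0 counts in 26 of 28 high-dose livers and 5 of 28 low-dose livers (log2 fold change -5.26 ± 0.83). The 2 high-dose livers above 0 were at 774 in cohort C and 169 in cohort D, and the cohort values of A2m in A, B, C and D were -11.96, -11.80, -2.41 and -4.68, so the size of its fold rests on those 2 livers. It was lower at high dose in 16 of 21 litters and higher in 0. Leaving A2m aside, the other 11 falls had the same sign on all 4 dates and were seen in 20 or 21 of 21 litters. These are again the livers that chose the genes.

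Complete separation of the doses was rare. For 25 of 18884 genes (0.132%) no high-dose liver overlapped any low-dose liver, 16 of them higher (0.0847%) and 9 lower (0.0477%) at high dose. All 25 had a mean over 50, and they made up 0.203% of such genes (0.13% higher and 0.0729% lower). Ift80, a subunit of the intraflagellar transport complex of cilia, was the 1 gene of the 25 with a symbol, or 0.0672% of the genes with one. It was chosen here after its values were seen. It ranged from 101 to 208 (median 169) at low dose and from 217 to 356 (median 283) at high dose. Its log2 fold change of 0.80 ± 0.05 (adjusted p = 5.38e-18) stayed under the fold of a call with TMM and was 1.19 with library size alone. Larger differences belonged to identifiers without a symbol. ENSRNOG00000008050.4 went from a median of 2097 (140 to 6544) to 1.85 (0 to 29.4), and ENSRNOG00000011250.6 from 728 (63.3 to 1948) to 1.08 (0 to 43.2). For both the doses did not overlap. ENSRNOG00000019584.6 went from a median of 0 (0 to 2.63) to 11.9 (0.723 to 1620) and ENSRNOG00000040350.1 from 0 (0 to 4.35) to 15.8 (0 to 1554), and for these the doses overlapped.

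Drug-metabolizing enzymes moved in both directions. Of 39 listed genes 10 were measured, and all 10 passed the adjusted p, 6 higher and 4 lower, with a median log2 fold change of 1.06 against 0.07 over all genes and -0.05 over the genes with a symbol. Of these, 5 rises and 1 fall were calls. Beside Cyp1a1 and Cyp2c24 the called rises were Gstm3l, a glutathione transferase (299 to 899, 1.49 ± 0.16), Fmo2, a flavin monooxygenase (86.3 to 183, 1.40 ± 0.21), and Akr7a3, an aldehyde reductase for aflatoxin (3568 to 8206, 1.2 ± 0.16). Aldh1a1, which oxidizes retinaldehyde, rose by 0.91 ± 0.20, and by 1.1 without necropsy date 1 and 1.16 without cohort A. Cyp1a2, a P450 of pericentral hepatocytes that the aryl hydrocarbon receptor also induces, went the other way, from 16153 (7180 to 21858) to 7092 (1313 to 16838). Its log2 fold change of -1.04 ± 0.16 (adjusted p = 2.8e-07) dropped inside the fold of a call without date 2 (-0.94), cohort A (-0.96) or cohort C (-0.98) and with library size alone (-0.71). Ahr itself, the receptor that induces Cyp1a1, had a log2 fold change of -0.37 ± 0.10 (adjusted p = 0.00233), which was 0.02 with library size alone.

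The rest of the oxidative stress and p53 list differed less between the doses than Gpx2. Of 22 listed genes 12 were measured, 6 rose, 2 fell and 4 did not pass, with Gpx2 the only call and a median of 0.25. Under scaling by library size alone 10 rose and 1 fell, with a median of 0.65. Gss, glutathione synthetase, rose from 1683 (1106 to 2752) to 2728 (1697 to 3705), by 0.59 ± 0.08, although the difference was 0.02 on date 3. Nfe2l2, the transcription factor of the antioxidant response, had medians of 4902 and 4630 and a log2 fold change of -0.08 ± 0.08 (adjusted p = 0.405, and 0.31 with library size alone). Gdf15, a stress-induced cytokine, rose by 0.68 ± 0.23 (adjusted p = 0.00856), and Ddb2, a DNA repair gene under p53, fell by 0.90 (SE 0.08), from 168 (112 to 259) to 87.5 (60.1 to 141), and was lower at high dose in all 21 litters.

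Rhbg, Glul, Slc1a2 and Cyp1a2, which mark pericentral hepatocytes, went in different directions. Rhbg, an ammonium transporter, rose from 153 (44.9 to 383) to 604 (198 to 1291), a log2 fold change of 2.04 ± 0.19 (adjusted p = 2.19e-13). Glul, glutamine synthetase, rose from 5710 (3444 to 11180) to 10689 (5879 to 16532), by 0.80 ± 0.09 (adjusted p = 6.99e-11), and its vehicle median of 12744 was above both. The low-dose median of Glul was thus the lowest of the 3 arms, which was not tested, while for Slc1a2 and Cyp1a2 the high-dose median was the lowest. Glul was higher and Slc1a2 lower at high dose in 21 of 21 litters. Of the zonation list 6 of 19 genes were measured, 2 higher, 3 lower and 1 not passing.

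Several genes of hepatocyte secretion, metabolism and signalling fell. Igfals, the liver-made subunit that holds insulin-like growth factors in blood, fell from 9553 (4614 to 15863) to 3392 (491 to 9163), a log2 fold change of -1.34 ± 0.16 (adjusted p = 4.33e-10), and the vehicle median was 13342. Abcc6, a transporter of the hepatocyte membrane, fell from 10452 (6295 to 15670) to 4697 (1343 to 11291), a log2 change of -1.07 ± 0.13. Irs1 and Gcgr, which carry insulin and glucagon signals, fell by 0.84 and 0.62 on the log2 scale, and Fgfr4, the bile acid feedback receptor, by 0.44. Tat, a tyrosine-degrading enzyme of hepatocytes, had medians of 26190 and 28109 and did not pass (-0.02 ± 0.19, adjusted p = 0.924, 0.36 with library size alone). Of the 6 genes of the liver check 5 fell and 1 did not pass, with a median of -0.74. Scaled by library size alone, 3 fell and 1 rose (median -0.40). In whole liver, fewer cells of a type and less RNA per cell cannot be told apart.

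The fold of a call was not firm for Abcc6, which lost it without date 2 (-0.97) or cohort B (-0.99) and passed the adjusted p in both. With library size alone Abcc6 (-0.75), Il6r (-0.76), Nr1d1 (-0.74) and Adamts7 (-0.73) stayed lower but inside the fold of a call. Acnat1, an acyltransferase of the bile acid list, was called lower (-1.27 ± 0.59, adjusted p = 0.0584) while its median was higher at high dose, 49.1 against 14.7. Its highest low-dose liver was at 4690, and 13 of 21 litters were lower at high dose. Its date values were -1.24, -0.75, 3.85 and -1.96. The call was lost with date beside cohort (-0.85, adjusted p = 0.233 in edgeR), with no cohort block (adjusted p = 0.161), and without date 1 (adjusted p = 0.150), date 4 (-0.34 on the log2 scale, adjusted p = 0.666), cohort A (adjusted p = 0.197) or cohort B (adjusted p = 0.196). Of 5 measured bile acid genes 1 rose and 3 fell, Acnat1 included, with a median of -0.44. With library size alone 2 rose and 1 fell, with a median of -0.07. Of 7 amino acid and urea genes 3 rose and 3 fell. Both measured secreted protein genes fell (median -0.89), and 1 of the 2 fell with library size alone (median -0.55). Of the 3 measured genes of fetal liver and altered foci 2 rose and 1 fell, Hsd17b2 was the 1 measured sex-biased gene, and the 1 measured kidney gene, Nphs1, had a log2 fold change of -0.35, which was 0.037 with library size alone.

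Lipid and glucose genes moved both ways. Of 34 listed genes 19 were measured, 11 rose, 7 fell and 1 did not pass (median 0.32), and with library size alone 12 rose and 5 fell (median 0.64). Gpat3, an enzyme of triglyceride synthesis, rose from 305 (43.4 to 1037) to 627 (91.4 to 2366), by 1.15 ± 0.26 (adjusted p = 0.000119), or 0.83 without cohort B, and its vehicle median was 25.7. Scd2, a fatty acid desaturase, rose from 795 to 1654 by 0.90 ± 0.10, and Aldoa, the glycolytic aldolase, from 2520 to 4630 by 0.82 ± 0.08. Scd2 and Aldoa were higher at high dose in 21 of 21 litters.

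Most measured macrophage and lymphocyte markers rose. Of 10 measured macrophage and Kupffer cell genes 7 rose, none fell and 3 did not pass (median 0.38), and their summed normalized count went from 27359 (19972 to 45390) to 35302 (26908 to 46586). Ctsd, a lysosomal protease, rose by 0.57 ± 0.06, and Adgre1, the F4/80 antigen, by 0.40 ± 0.11. Cd163, the scavenger receptor of resident macrophages, had medians of 2008 and 1954 and did not pass (-0.02 ± 0.10, adjusted p = 0.871, 0.36 with library size alone). Cd4, the T helper cell receptor that macrophages of the rat also carry, rose from 1255 (769 to 2228) to 2130 (1259 to 3195), by 0.69 ± 0.09 (adjusted p = 4.95e-09). Cd247, a chain of the T cell receptor complex, rose by 0.54 ± 0.07, and with Cd4 it made up the 2 measured genes of the 14 on the lymphocyte list. Their sum had medians of 1308 and 2204. Ccl2, the monocyte chemoattractant, rose from 43.0 (13.7 to 267) to 95.5 (19.6 to 1847), a called log2 fold change of 1.19 ± 0.38 (adjusted p = 0.00555). It was 0.86 without replicate 5 of the high-dose group of cohort D, 0.75 without cohort D and 0.99 without date 2.

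Few stellate cell, matrix and vessel genes were measured. Of 4 measured stellate cell and myofibroblast genes Tgfb2, a transforming growth factor, rose by 1.25 ± 0.15 (78.5 to 178) and S100a6, a calcium-binding protein of activated stellate cells, by 1.42 ± 0.24 (234 to 591), and 2 did not pass. Their summed count had medians of 4300 and 5017. Among 10 of 37 matrix genes 4 rose and 5 fell. Ogn, a small leucine-rich proteoglycan, rose from 355 (178 to 699) to 709 (325 to 2483), by 1.21 ± 0.14, and Adamts10 by 0.76 ± 0.09, while the protease Adamts7 fell from 832 (337 to 1533) to 345 (148 to 874), a log2 change of -1.08 ± 0.14. Among 6 endothelial genes Kdr, the main receptor for vascular endothelial growth factor, fell by 0.87 (3282 to 1708), and Thbd, thrombomodulin, rose by 0.61 ± 0.11, with 3 higher and 2 lower in all. The summed endothelial count had medians of 5319 and 3856. Of 8 cholangiocyte and ductular genes 3 rose and 4 fell (median -0.38). Beside Lcn2 and Ggt1 the third rise was Slc10a2, a bile acid carrier (0.45 ± 0.13), and Cldn2, a junction protein, fell by 0.45 (SE 0.08). With library size alone the matrix list had 6 rises and 3 falls, the endothelial list 4 and 1 (median 0.49), the cholangiocyte list 3 and 2 (median -0.0013), the macrophage list 9 and 0 (median 0.77), and all 4 stellate cell genes rose (median 1.11). The part of cell composition in any gene's difference was not tested.

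Of 14 measured cytokine and acute phase genes 9 fell, 3 rose and 2 did not pass, with a median of -0.51 against 0.07 over all genes and -0.05 over those with a symbol. When scaled by library size alone 6 fell and 4 rose, with a median of -0.12. Cxcl12, a chemokine of sinusoids and stroma, fell from 10492 (5689 to 16274) to 3454 (1606 to 9254), a log2 fold change of -1.39 ± 0.13 (adjusted p = 5.66e-13), and its vehicle median of 14290 was above both doses. Il6r, the interleukin-6 receptor, fell from 4228 (1983 to 11675) to 1940 (664 to 5251), with -1.13 ± 0.14 (adjusted p = 1.69e-09). Il33, an alarmin, had a log2 fold change of -0.92 ± 0.12, and with litter as block (-1.03) or without date 3 (-1.0) it passed the fold of a call. Cfb, complement factor B, fell by 0.87. The rises were Ebi3, a subunit of interleukin-27 (43.6 to 104, 1.34 ± 0.15), Ifngr1, an interferon-gamma receptor chain (0.51 ± 0.06), and Il17rb, a receptor for interleukin-25 (0.85 ± 0.10). Cxcl12 and Il6r were lower in 21 of 21 litters.

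Of 8 measured cell cycle genes 6 rose, 1 fell and 1 did not pass. Cdkn1a, the p53-induced inhibitor of the cell cycle, rose by 0.38 ± 0.19 (adjusted p = 0.0748), with 0.99 on date 1 and 0.06 on date 2. Ccne1, cyclin E1, was the only call, from 39.3 (19.1 to 114) to 96.5 (38.7 to 310), by 1.39 ± 0.18 (adjusted p = 5.19e-09), and Hells, a chromatin helicase of dividing cells, fell by 0.83 (767 to 396). Tert, the telomerase reverse transcriptase, which is not on the cell cycle list, fell by 0.90 (657 to 350). Of 43 measured ribosome biogenesis genes 21 rose, 3 fell and 19 did not pass, with no call and a largest log2 fold change of 0.59 for Nop58. With library size alone all 43 were higher. Of 12 clock genes 4 fell and 8 did not pass. Of the 12, 1 fell and 3 rose with library size alone. Nr1d1, the REV-ERB alpha repressor, fell from 1295 (108 to 5762) to 572 (122 to 2452), with -1.09 ± 0.31 (adjusted p = 0.00187), but its date values were -1.40, 0.08, -1.76 and -1.31, and it lost the fold of a call without date 1 (-0.91), cohort B (-0.90) or cohort D (-0.93). The time of day of each necropsy was not analysed here.

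**Figure D3:**
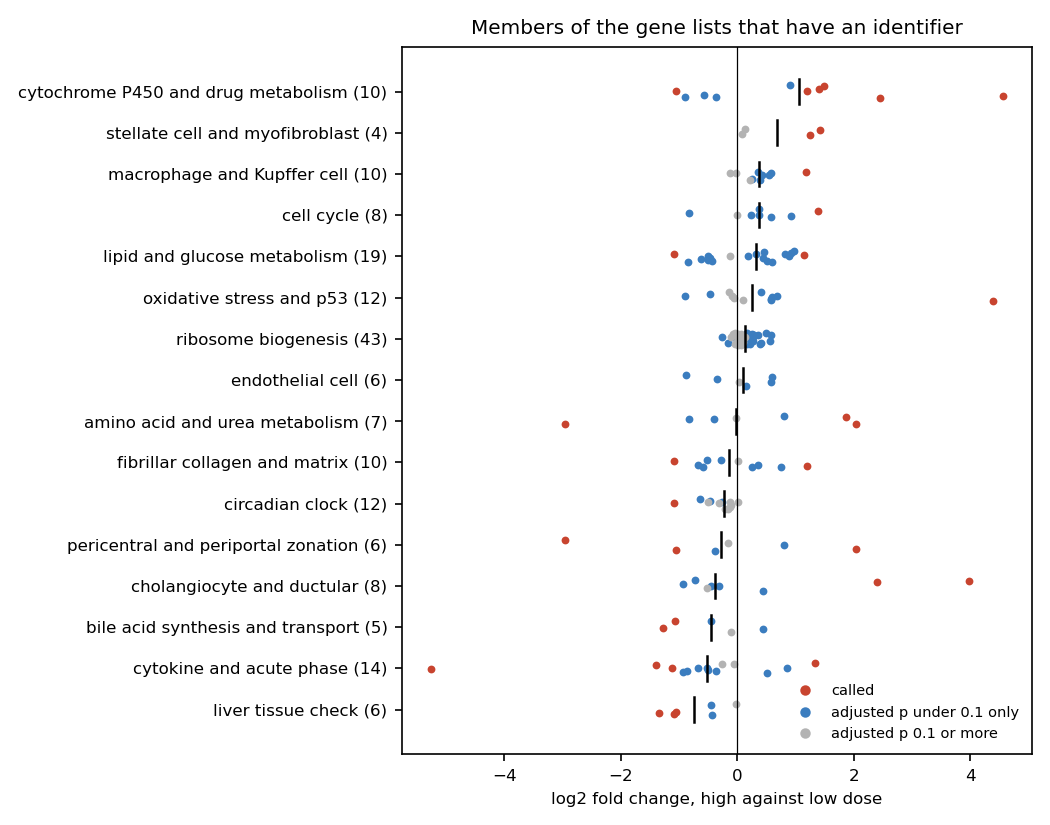
Log2 fold change (high against low dose) of the measured members of each gene list with at least 4 of them, the number measured in parentheses, with red for called genes, blue for genes past the adjusted p only, grey for the rest and a black bar at the list median. Medians run from -0.74 (liver tissue check) to 1.06 (cytochrome P450 and drug metabolism). With library size alone the median turned positive for the matrix (0.25), amino acid and urea (0.36), zonation (0.07) and clock (0.15) lists.

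The 4 ancestral cohorts gave the same comparison 4 times with 7 against 7 livers, from animals that no other cohort used. In cohorts A, B, C and D 2300, 3177, 2391 and 2203 genes were called, of which 66.8%, 69.8%, 73.0% and 80.1% were higher at high dose. These are 12.2%, 16.8%, 12.7% and 11.7% of the genes tested. The cohort D values include replicate 5 of its high-dose group and were not computed without it. In all 4 cohorts 1069 genes were called in 1 direction, 4610 were called in at least 1 cohort, and 25 were called in opposite directions in different cohorts. For the named genes apart from A2m, cohort values ran from 1.38 to 5.11 for the rises and from -3.58 to -1.15 for the falls. This is a description, since the genes were chosen for their size in the same livers and for 1 sign in all cohorts. A test of the cohort by dose terms themselves called 0 of 18884 genes at an adjusted p of 0.1 in edgeR, with 563 at an unadjusted p under 0.05. DESeq2's likelihood ratio test also called 0, with 503 at an unadjusted p under 0.05. Both counts are smaller shares of the 18884 genes than the 0.05 that chance alone would give. The 5 genes with the smallest p of this test had no symbol, and their unadjusted p lay between 0.000269 and 0.00126. A difference between cohorts was therefore not detected for any gene with 7 males per group, which does not show that the cohorts responded alike.

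**Figure D4:**
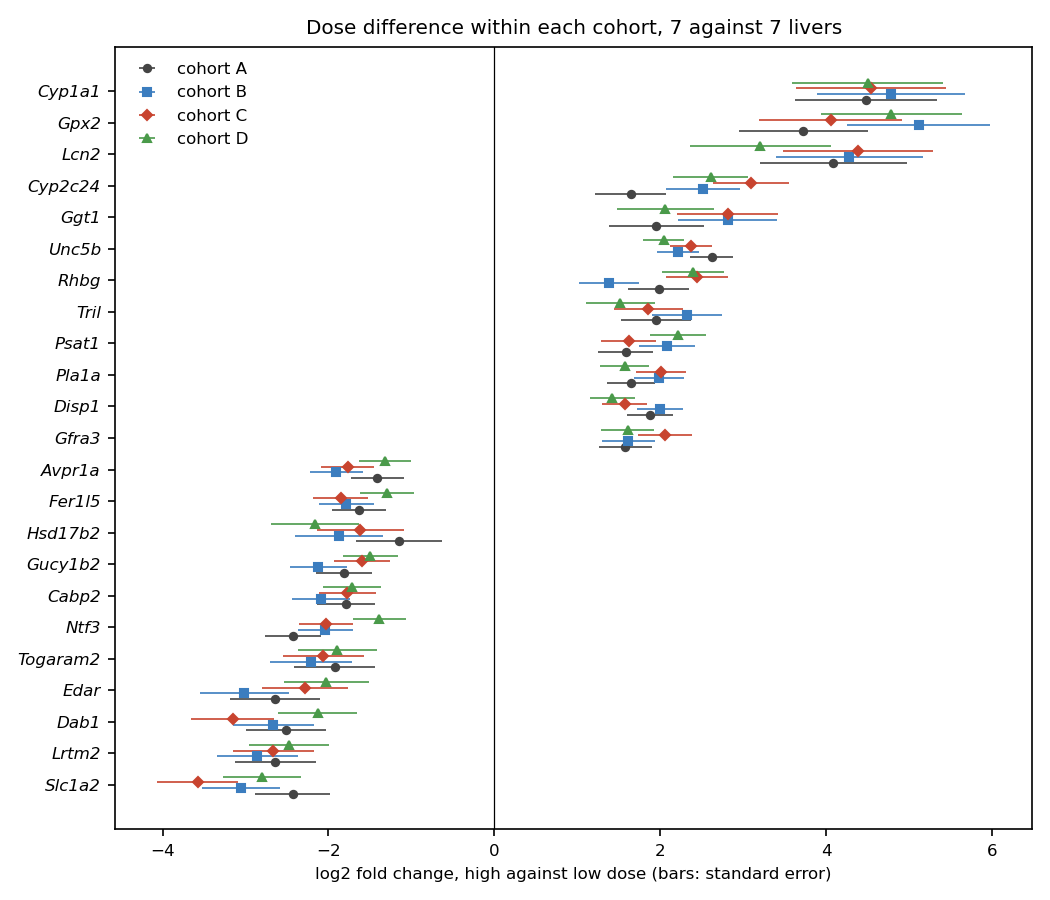
Log2 fold change (high against low dose) with its standard error in each cohort, 7 against 7 livers, for the 12 largest named rises and 11 of the 12 largest named falls. A2m is left out because 26 of its 28 high-dose livers were at 0. That the cohort values of a gene share 1 sign was a condition of naming it.

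Dates 1, 2 and 4 held 8 males per dose and date 3 held 4. All 12 rises and all 12 falls had 1 sign on every date, between 1.19 and 5.59 for the rises and between -3.63 and -0.75 for the falls other than A2m, in the same livers that chose the genes. The date by dose terms called 0 genes in edgeR, with 534 at an unadjusted p under 0.05, and DESeq2 called 0, with 533. Both counts are again smaller shares of the tested genes than 0.05. With litter as block in place of cohort, 1971 genes were called higher and 766 lower.

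Males of a high-dose group differed more among themselves than males of a low-dose group. The distance of each liver from its group mean, over all tested genes on the log2 CPM scale, was 0.574 ± 0.111 (SD, n = 28) at high dose and 0.515 ± 0.0670 (n = 28) at low dose. The difference of 0.0597 had p = 0.0135 (two-sided permutation test, 100000 resamples). Without replicate 5 of the high-dose group of cohort D, whose distance of 0.965 was the largest of all, the difference was 0.0401 and p = 0.0520 in the same permutation test. Within cohorts the mean distance at high against low dose was 0.536 and 0.525 in A, 0.561 and 0.529 in B, 0.554 and 0.518 in C and 0.647 and 0.487 in D. The difference in cohort D was 0.160 with replicate 5 and 0.0836 without it (high-dose mean 0.571), against 0.0110 to 0.0365 in the other cohorts, and the cohorts were not tested against each other.

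**Figure D5:**
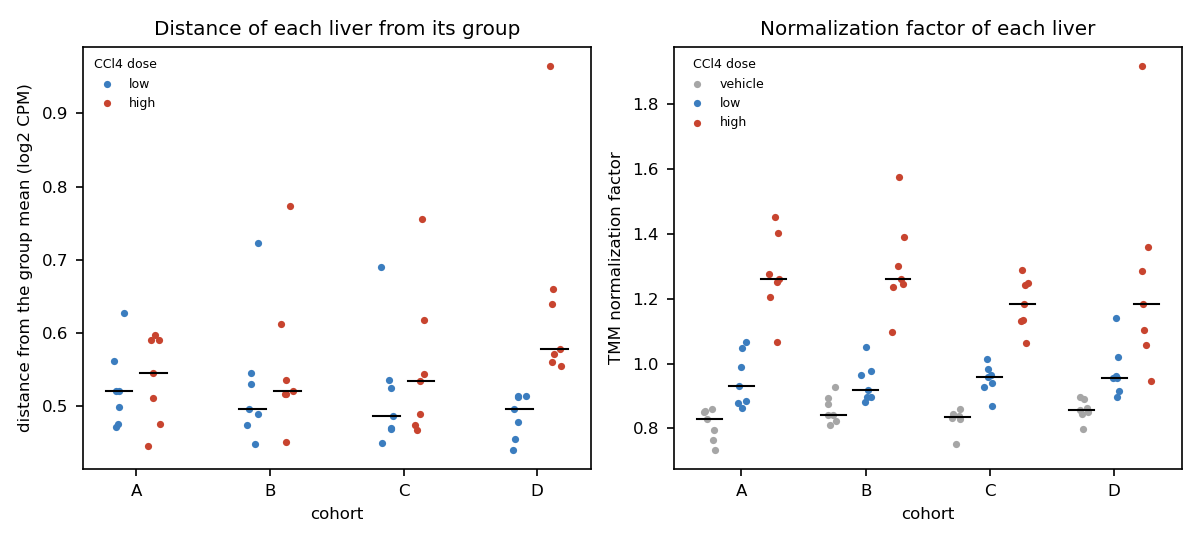
Left, distance of each liver from the mean of its group of 7 over all tested genes (log2 CPM), by cohort and dose. Right, TMM normalization factor of each liver, with vehicle livers in grey, and in both panels a black line at the group median. The high-dose liver at 0.965 and 1.92 is replicate 5 of cohort D, and median factors were 0.956 at low and 1.25 at high dose.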

How the data were processed

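Stranded poly(A) RNA libraries of F2 rat livers were sequenced by Genesupport/FASTERIS for the authors. The authors estimated transcript abundance with Salmon 0.14.0 against Ensembl release 100 (rat) and summed it per gene. The deposited gene counts are whole numbers, as rounded by the authors without normalization. The authors' average transcript length of each gene and sample served only as an offset in 1 alternative. Library totals were 31638559 to 51343589 counts, and 0 libraries were identical.

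Groups came from the sample labels, and litters and necropsy dates from the study's supplementary methods. Symbols came from its supplementary list, matched by identifier. Tested were genes whose counts summed to more than 10 in 1 or more of the 8 groups, using edgeR 4.0.16 (R 4.3.3), with TMM factors over 83 livers, cohort as block and Benjamini-Hochberg adjustment. Named were the 12 highest and 12 lowest log2 fold changes among called genes with a symbol, a mean normalized count over 50 and 1 sign in all cohorts, up to 4 called members of each list per direction, and further list members, Ift80 among them, that were chosen after their values were seen. The comparison, lists and members were chosen with earlier results of these data known. On simulated counts over 18884 genes the dose test recovered 100 of 100 changes of 1.5 and 100 of 100 of 2.5 on the log2 scale, with 26 other calls. The changes were placed only in genes with a mean count over 50, and the counts were drawn from the spread fitted to these livers. Recovery in genes with lower counts was not tested. Littermates at different doses deviated together slightly (mean correlation 0.0801 over 22 pairs, 0.0426 for 30 pairs of other litters on the same date). P-values measure the spread between separate males, some of them littermates within a group. The males came from 32 litters, and the main fit held cohort but not litter. With litter as block in place of cohort, 2456 of the 3136 calls were kept. Kidney tables were not used, and some genes that the naming rule picked are not reported here. Alternatives used limma 3.58.1 and DESeq2 1.42.0.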

Additional observations from a re-analysis of the deposited data

Results flagged for a closer look

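Library measures of the 8 dose groups of 7 livers were screened for a highest or lowest liver far from the other 6. Of 32 sets of 7 values 7 were picked out, and chance picks out about 1 in 20. In cohort A the deepest liver of the high-dose group had a total of 50930971 counts (the next 41125966) and the deepest of the low-dose group 49469175 (the next 39459216). The largest distances from the group mean that stood apart were 0.722 in the low-dose group of cohort B, 0.690 in the low-dose group of cohort C and 0.965 in the high-dose group of cohort D. The last of these was the liver with a TMM factor of 1.92, against 1.36 for the next in its group. In the low-dose group of cohort D the 10 largest genes of 1 liver took 18.8% of its counts, against 21.9% in the next. Single genes were described over 28 livers per dose and were not screened.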

How the results depend on the processing

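Genes called higher and lower at high dose numbered 2254 and 882. Scaling by library size alone gave 4099 and 462, and testing the fold change against 1 with glmTreat gave 1102 and 327. A filter on a mean count over 10 gave 572 lower calls (fewer genes were tested). The replicate block of litter in place of cohort gave 1971 and 766 and changed no call of a gene followed singly except Il33 (-1.03). Leaving out 1 cohort or 1 date, or, chosen after seeing the data, replicate 5 of the high-dose group of cohort D, gave 2070 to 2323 higher and 698 to 967 lower calls. Without that replicate the difference in spread was 0.0401. All other alternatives stayed within 1.5 times, including DESeq2 (2075 and 805) and limma-voom (1721 and 728). The 24 named rises and falls kept their calls under all 23 alternatives. They were chosen for the size of their differences in the same livers, so this is a description. Signs turned for Acnat1 with limma-voom (0.042) and with library size alone for Nfe2l2 (0.31), Cd163 (0.36), Ahr (0.022), Tat (0.36) and the kidney gene Nphs1 (0.037). Among the genes followed singly glmTreat ended 13 calls and library size alone ended 7 and added 11. The causes were not tested. Among genes with a mean over 50, 9.07% were called, against 16.6% of all genes.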
